A study of Homo sapiens with 15 samples.

Results

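Long noncoding RNAs and snoRNA host RNAs were examined in HEK293T cells, an established embryonic kidney line, after silencing of mRNA decay factors. They were chosen by symbol and level. The symbol had to begin with LINC or SNHG and a digit, end in -AS and a digit, or be GAS5 or HCG11, and the mean over all 15 arrays had to reach 5 log2 units. This gave 171 RNAs out of 949 with such symbols and 14884 genes named on the array. The other 778 lay below the level and were not followed further. The 171 comprised 9 snoRNA hosts (8 SNHG RNAs and GAS5), 108 antisense RNAs, 53 LINC RNAs and HCG11, and the hosts were described apart from the other 162.

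The series held 15 arrays in 5 groups of 3: siRNA against LOC550643 (a pool of 4), which encodes the P-body microprotein NoBody, siRNA against Dcp2, siRNA against DcpS, siRNA against GAPDH, and a non-silencing siRNA. All 15 samples, the non-silencing ones included, had received actinomycin D, which blocks transcription, at 1 ug per mL for 4 hours, starting 48 hours after transfection. Dcp2 removes the mRNA cap, DcpS degrades the cap left behind by 3' to 5' decay, and both DcpS and GAPDH were the study's unrelated comparisons. Values below are log2 probe set summaries, and a change is a difference of group means in those units. An RNA is said to have risen or fallen where limma's moderated test gave an adjusted p (Benjamini-Hochberg over all 14884 genes) under 0.05, and is then called. Where groups are said not to overlap, this describes their arrays, and the share of all genes without overlap was not counted. The labels do not say whether replicates were separate cultures. The p-values therefore measure only how far these samples spread, and that spread may be technical.

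SNHG RNAs and GAS5 are spliced RNAs whose introns carry snoRNAs, the guides for chemical modification of ribosomal and spliceosomal RNA. Once the snoRNA has been released, the spliced host is exported, and several hosts are textbook substrates of nonsense-mediated decay, which ends in decapping. Some begin with a terminal oligopyrimidine tract like that of ribosomal protein mRNAs. Antisense RNAs are transcribed from the strand opposite a coding gene, often from a shared promoter region, and LINC RNAs lie between coding genes. Many such RNAs turn over fast, so their level after a transcription block depends on the level before it and on their decay, and the arrays do not separate these.

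Labels and cells were checked first. DCP2 mRNA averaged 6.34 ± 0.10 with Dcp2 siRNA against 8.14 ± 0.13 with non-silencing siRNA, and GAPDH mRNA 5.97 ± 0.24 with its own siRNA against 7.20 ± 0.10 with non-silencing siRNA (SD, n = 3 arrays in every group). No probe set carried the name LOC550643 or DCPS, and the knockdown of those targets was not analysed here. Of the kidney line's 6 measured markers, IRS4, KRT18 and VIM averaged 8.90, 8.72 and 8.08, and EYA1, KRT8 and PAX2 averaged 6.70, 6.06 and 5.65, while markers of blood, fibroblast, hepatocyte and adipocyte ranged from 2.39 (DCN) to 5.31 (TTR). Arrays of a group correlated at 0.983 to 0.991 over all probe sets, and arrays of different groups at 0.981 to 0.991. Within groups the arrays also spread along a shared axis that held 24.7% of the within-group variance. Non-silencing replicate 1 and DcpS replicate 1 stood at its low end, at -14.6 and -14.0 from their group means. Their scores, -20.2 and -16.7, also carry differences between groups. The axis was taken from these same arrays, so a model with its score has less residual spread by construction. Changes in such a model are therefore not an independent check.

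The 171 RNAs were mostly of modest level. Their median was 5.82 log2 units, against 5.47 over all named genes, and 93 of the 171 lay under 6. SNHG hosts had a median of 7.02, LINC RNAs of 6.16 and antisense RNAs of 5.68. The highest, each by its brightest probe set, were LINC00987 at 11.8, LINC01347 at 10.4 and SNHG16 at 10.1. The other probe set of LINC00987 lay at 4.98, and the 6 of LINC01347 ran from 5.59 to 10.4. Just inside the level were OSBPL10-AS1 at 5.01, LINC00977 at 5.01 and RNF213-AS1 at 5.03, and just outside it were LINC02900 at 4.99, LINC00602 at 4.98 and CCDC183-AS1 at 4.96. Of the 10 SNHG hosts with a named probe set, SNHG18 alone was left out, at 3.17. A probe set's level also depends on its probes, so levels of different RNAs give only a rough order.

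Against non-silencing, 5 of the 171 RNAs were called with LOC550643 siRNA, 2 with Dcp2 siRNA, 13 with DcpS siRNA and 4 with GAPDH siRNA. Of all named genes, 1.57% were called with LOC550643 siRNA (0.658% higher and 0.907% lower) and 1.98% with Dcp2 siRNA (1.05% higher and 0.927% lower). With DcpS siRNA it was 3.61% (1.76% higher and 1.85% lower) and with GAPDH siRNA 2.0% (0.726% higher and 1.27% lower). Among the 8504 genes at 5 log2 units or more, the shares were 2.67%, 3.3%, 6.02% and 3.37% in the same order. The 171 RNAs were called at 2.92%, 1.17%, 7.6% and 2.34%, close to or below these shares for genes of like level. The 24 calls fell on 19 RNAs, 14 of them called in 1 comparison and 5 in 2, and 20 of the 24 were lower with the targeting siRNA. The comparisons share the non-silencing arrays. The map of called RNAs gives each of the 19 with its changes in all 4 comparisons.

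**Figure D1:**
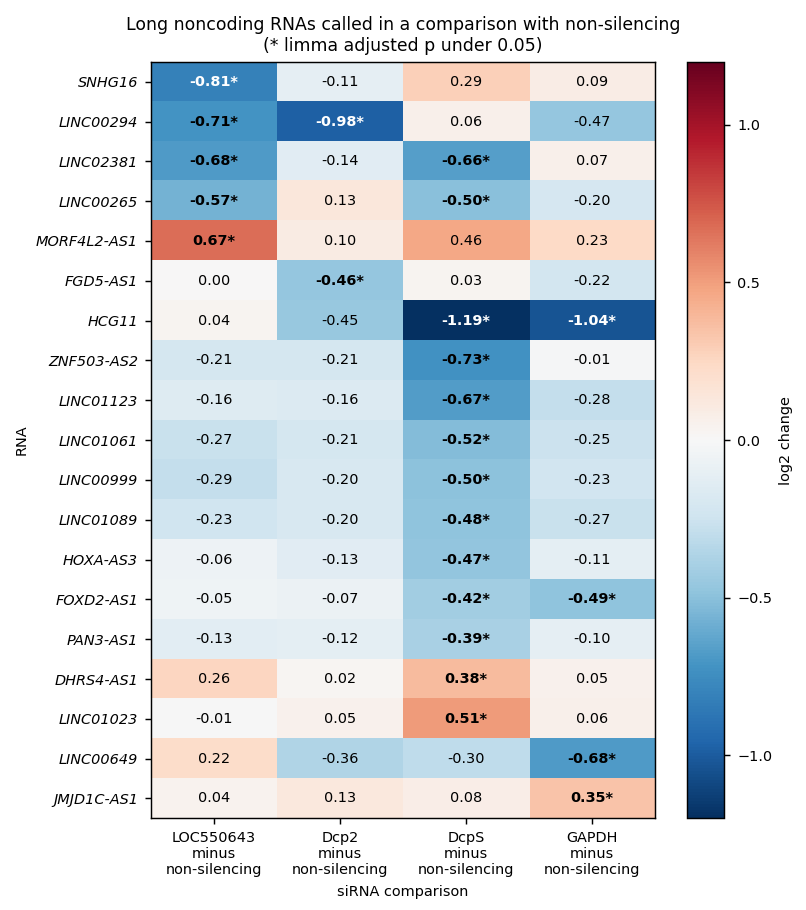
Log2 change of the 19 long noncoding RNAs called in at least 1 comparison with non-silencing siRNA (rows) for LOC550643, Dcp2, DcpS and GAPDH siRNA (columns, each minus non-silencing, 3 arrays a group). Blue is lower and red is higher with the targeting siRNA, and a star marks a limma adjusted p under 0.05. DcpS siRNA has the most stars (13), and 20 of the 24 stars stand on lower values.

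Among the SNHG hosts, SNHG16 fell with LOC550643 siRNA and no other host was called in any comparison. SNHG16, the host of the box C/D snoRNAs SNORD1A, SNORD1B and SNORD1C, was at 9.29, 9.47 and 9.32 log2 units with LOC550643 siRNA. It was at 10.11, 9.92 and 10.17 with Dcp2 siRNA, 10.55, 10.32 and 10.51 with DcpS siRNA, 10.24, 10.38 and 10.15 with GAPDH siRNA and 10.39, 10.11 and 10.01 with non-silencing siRNA. All 3 LOC550643 arrays lay below all 12 other arrays, with no overlap. The change against non-silencing was -0.81 (SE 0.11, limma adjusted p = 0.00186), which left 57.0% of the non-silencing level. In RNA from whole cultures, fewer expressing cells and less RNA per cell cannot be told apart. Against the other targeting siRNAs, SNHG16 in LOC550643 arrays differed by -0.70 from Dcp2 (limma adjusted p = 0.00274), -1.10 from DcpS (4.24e-05) and -0.89 from GAPDH arrays (0.000318). These calls held under all 24 alternatives tried for each of the 4 comparisons. SNHG16 within groups ran against the shared axis (r = -0.72 over 15 arrays' deviations from their group means, a description), and once the axis score entered the model its change against non-silencing was -0.75 (limma adjusted p = 0.000851).

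**Figure D2:**
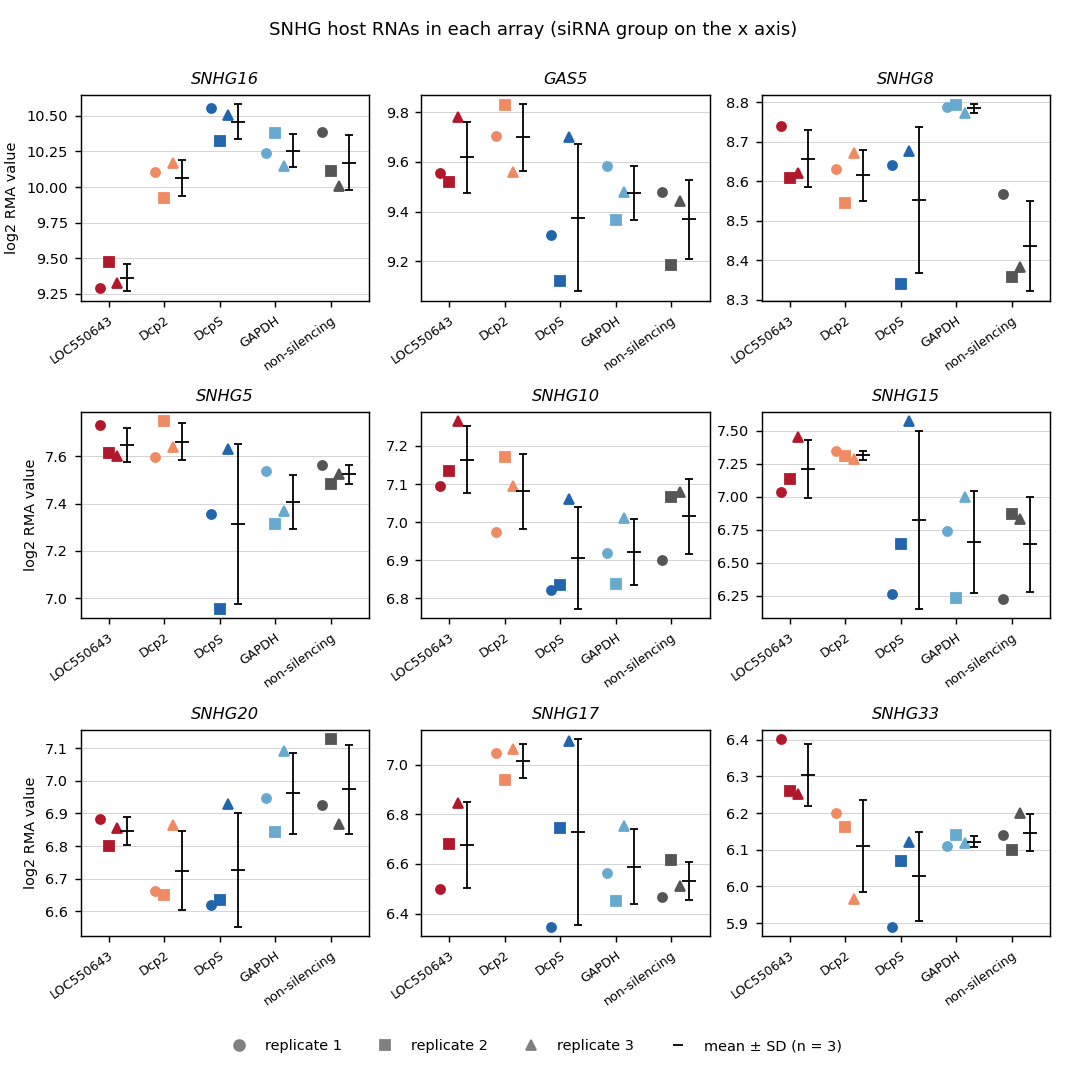
Log2 RMA value of each of the 9 SNHG host RNAs in each of the 15 arrays, by siRNA group (x axis, non-silencing last). Marker shapes are replicate numbers, and the bars are the group mean and SD (n = 3). SNHG16 is lower in the 3 LOC550643 arrays than in every other array, while the groups overlap for most other hosts and DcpS replicate 3 often stands above DcpS replicates 1 and 2.

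The 8 other hosts were not called against non-silencing with any siRNA. GAS5, which hosts 11 snoRNAs and is a classic substrate of nonsense-mediated decay, was at 9.56, 9.52 and 9.78 with LOC550643 siRNA, 9.71, 9.83 and 9.56 with Dcp2 siRNA and 9.48, 9.18 and 9.44 with non-silencing siRNA. The changes with LOC550643 and Dcp2 siRNA were 0.25 (limma adjusted p = 0.490) and 0.33 (0.235), neither called. With DcpS siRNA GAS5 changed by 0.01 and with GAPDH siRNA by 0.11. SNHG15, a short-lived host RNA, was at 7.03, 7.14 and 7.45 with LOC550643 siRNA, 7.35, 7.31 and 7.28 with Dcp2 siRNA and 6.22, 6.87 and 6.83 with non-silencing siRNA. Its changes of 0.57 with LOC550643 and 0.67 with Dcp2 siRNA were not called (limma adjusted p = 0.401 and 0.215). SNHG15 had the largest within-group SD of the 171 RNAs (0.40) and followed the shared axis within groups (r = 0.83), at whose low end non-silencing replicate 1 stood. The part of the axis in its changes was not tested.

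SNHG17, host of SNORA71 guides, was at 7.05, 6.94 and 7.06 with Dcp2 siRNA against 6.47, 6.62 and 6.51 with non-silencing siRNA. The change was 0.48 and not called (limma adjusted p = 0.101), and with LOC550643, DcpS and GAPDH siRNA its changes were 0.14, 0.20 and 0.06. SNHG8, host of SNORA24, was at 8.79, 8.79 and 8.77 with GAPDH siRNA against 8.57, 8.36 and 8.38 with non-silencing siRNA, a change of 0.35 that missed the threshold (limma adjusted p = 0.0877). With LOC550643, Dcp2 and DcpS siRNA it changed by 0.22, 0.18 and 0.12. SNHG5, host of SNORD50A and SNORD50B, changed by 0.12 for LOC550643, 0.14 for Dcp2, -0.21 for DcpS and -0.12 for GAPDH siRNA. SNHG10 changed by 0.15, 0.07, -0.11 and -0.09 in that order, SNHG33 by 0.16, -0.04, -0.12 and -0.02, and SNHG20 by -0.13, -0.25, -0.25 and -0.01. The DcpS replicates of several hosts lay far apart. SNHG15 was at 6.26, 6.64 and 7.57 in them, SNHG17 at 6.35, 6.75 and 7.09, and SNHG5 at 7.36, 6.95 and 7.63.

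For the 9 hosts the median change was 0.15 (LOC550643), 0.14 (Dcp2), 0.01 (DcpS) and 0.02 (GAPDH). Over the 8504 genes of like level it was 0.01, -0.01, -0.01 and -0.02. With LOC550643 siRNA 7 of the 9 were positive (52.1% of genes of like level were) and with Dcp2 siRNA 6 of 9 (48.4%). At an unadjusted p under 0.05 there were 2, 4, 2 and 1 of the 9 hosts for LOC550643, Dcp2, DcpS and GAPDH siRNA, beside 17.8%, 24.0%, 23.0% and 18.7% of genes of like level. The other 162 RNAs had medians of -0.05, -0.06, -0.05 and -0.06. Of all 171, 98, 103, 105 and 109 were below 0 (57.3%, 60.2%, 61.4% and 63.7%), as were 47.9%, 51.6%, 51.5% and 53.3% of genes of like level. Across the 162, the distribution of changes lay slightly to the left of that of all genes of like level over most of its range with each siRNA, as the plot of cumulative shares shows. The 4 comparisons share the non-silencing arrays, so these 4 medians are not separate observations.

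**Figure D3:**
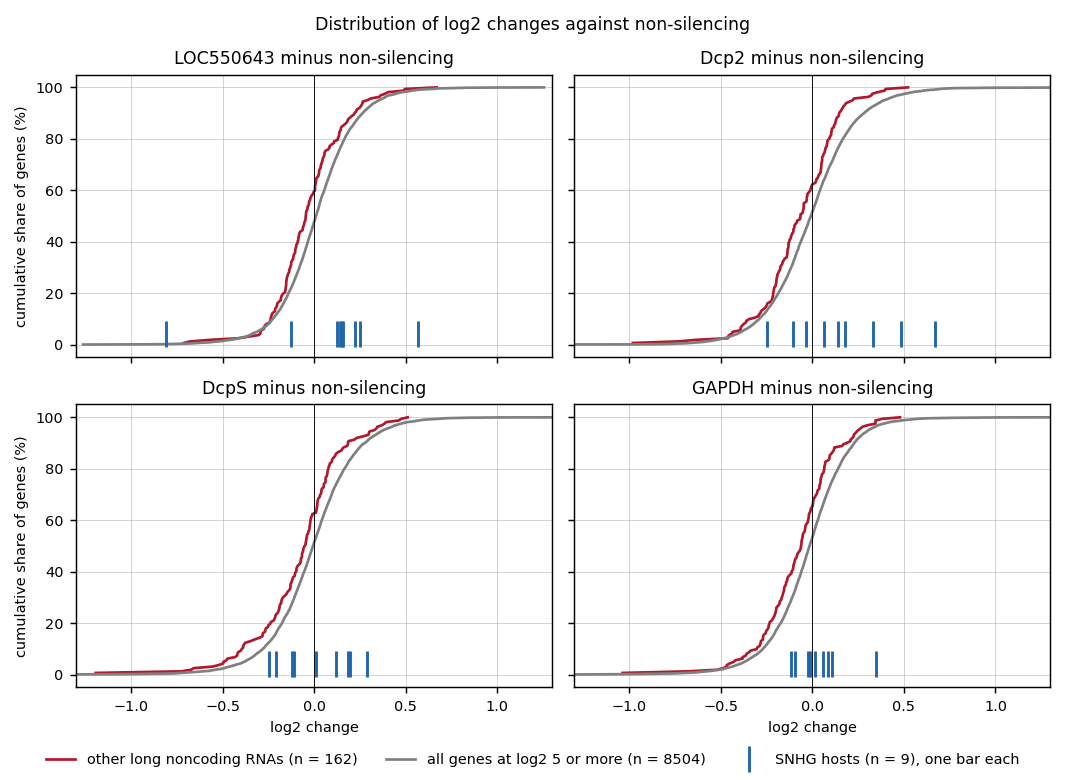
Cumulative share of genes (y axis, %) by log2 change against non-silencing siRNA (x axis) in 4 panels. The red curve is the 162 long noncoding RNAs that are not SNHG hosts, the grey curve is all 8504 genes with a mean log2 of 5 or more, and each blue bar is 1 of the 9 SNHG hosts. The red medians lie between -0.06 and -0.05 and the grey ones between -0.02 and 0.01, and the lowest blue bar with LOC550643 siRNA, at -0.81, is SNHG16.

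The annotated starts of the 4 brightest hosts are shown because some host RNAs are known to begin with an oligopyrimidine tract. Each line gives the 15 bases before the start and the 15 from it, on the RNA's strand, from RefSeq's GRCh38.p14 promoter table, with any run of at least 5 C or T that reaches the start in capitals.
SNHG16, chr17:76557749-76557778, plus strand: cgcaggggcggtctcgcgttcttttcgagg
GAS5, chr1:173869031-173869060, minus strand: tgccatcatgaattcagatgtgtttatttt
SNHG8, chr4:118278747-118278776, plus strand: aaggcctcggCCTTTCacattcgggaagcg
SNHG5, chr6:85678719-85678748, minus strand: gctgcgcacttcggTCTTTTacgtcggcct
Of the 8 hosts with a window, SNHG8 and SNHG5 held such a run at the start and SNHG16 and GAS5 did not, nor did SNHG10, SNHG17, SNHG20 or SNHG33. The search took the most upstream annotated start and the RNA's strand only, and no match says only that no such run reached this start. Runs elsewhere in the window were not counted. SNHG16, SNHG17, SNHG20 and SNHG33 each hold a run of that length away from the start. The run stood at 18.3% of the 27305 genes in the promoter table, each by its most upstream start, and at 23 of the 138 other RNAs with a window (16.7%). By RefSeq's gene spans, 31 snoRNA genes lay within 7 of the 9 hosts and within 4 other RNAs (THAP9-AS1, EPB41L4A-AS1, STX18-AS1 and STARD7-AS1), with strand not checked. None of the 31 had a named probe set, so host and snoRNA could not be set side by side.

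With LOC550643 siRNA, 4 RNAs that are not snoRNA hosts were called, and 3 of them fell. LINC00294 was at 7.34, 7.08 and 6.72 with LOC550643 siRNA against 7.89, 7.83 and 7.56 with non-silencing siRNA. The groups did not overlap, and the change was -0.71 (SE 0.16, limma adjusted p = 0.0372). LINC02381 was at 7.47, 7.11 and 7.24 against 8.07, 7.89 and 7.88 in non-silencing arrays, again with no overlap (change -0.68, SE 0.15, limma adjusted p = 0.0301). LINC00265 was at 7.72, 7.78 and 7.79 against 8.17, 8.59 and 8.23 in non-silencing arrays (change -0.57, SE 0.12, limma adjusted p = 0.0240). Of the 3 probe sets of LINC00265, the others, at mean levels of 7.24 and 4.51, changed by -0.00 and -0.44, and with the mean of the 3 it was not called (-0.34, limma adjusted p = 0.173). MORF4L2-AS1 was the riser. It is antisense to MORF4L2, which encodes a subunit of the NuA4 histone acetyltransferase complex, and was at 6.77, 6.74 and 7.10 with LOC550643 siRNA against 5.86, 6.37 and 6.39 with non-silencing siRNA (change 0.67, SE 0.16, limma adjusted p = 0.0422). The low non-silencing value was replicate 1, and MORF4L2 itself changed by 0.17.
The calls other than SNHG16 were open to single arrays. LINC00265 was not called once any 1 of the 3 LOC550643 arrays or non-silencing replicate 2 was left out (limma adjusted p 0.0684 to 0.103), and LINC02381 not without LOC550643 replicate 2 or 3 or any non-silencing array (0.0566 to 0.144). LINC00294 was not called without LOC550643 replicate 2 or 3, non-silencing replicate 1 or 2, Dcp2 replicate 2 or 3, DcpS replicate 2 or GAPDH replicate 1 (0.0512 to 0.174), and MORF4L2-AS1 not without any of 11 arrays, LOC550643 replicates 1, 2 and 3 and non-silencing replicates 1 and 2 among them (0.0504 to 0.199).

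With Dcp2 siRNA, LINC00294 and FGD5-AS1 fell and no RNA of the 171 rose. LINC00294 was at 6.61, 6.86 and 6.87 with Dcp2 siRNA against 7.89, 7.83 and 7.56 with non-silencing siRNA. The change of -0.98 (SE 0.16, limma adjusted p = 0.00890) left 50.7% of the non-silencing level. With GAPDH siRNA it was at 7.19, 7.66 and 7.03 (change -0.47, not called) and with DcpS siRNA at 7.87, 7.78 and 7.82 (0.06). LINC00294 ran against the shared axis within groups (r = -0.76), and once the axis score entered the model it changed by -0.76 with Dcp2 siRNA (limma adjusted p = 0.0158) and by -0.60 with LOC550643 siRNA (0.0197). FGD5-AS1 was at 6.50, 6.43 and 6.40 with Dcp2 siRNA, below all 12 other arrays by a narrow margin, since GAPDH replicate 3 stood at 6.51. The non-silencing arrays stood at 7.01, 6.98 and 6.72 (change -0.46, SE 0.11, limma adjusted p = 0.0372), and with LOC550643 and DcpS siRNA FGD5-AS1 changed by 0.00 and 0.03. Without non-silencing replicate 1 neither was called (LINC00294 limma adjusted p = 0.0548). FGD5-AS1 was also not called without any 1 of the 3 Dcp2 arrays, non-silencing replicate 2 or GAPDH replicate 1 (0.0521 to 0.169), nor with the axis score as a covariate.

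With DcpS siRNA, 11 RNAs fell and 2 rose. HCG11, a long noncoding RNA of the HLA complex region, was at 5.48, 4.41 and 5.40 with DcpS siRNA and at 5.50, 5.08 and 5.18 with GAPDH siRNA. It was at 6.50, 6.41 and 6.06 with LOC550643 siRNA, 6.08, 5.89 and 5.54 with Dcp2 siRNA and 6.27, 6.63 and 5.97 with non-silencing siRNA. The DcpS arrays spread widely, from 4.41 to 5.48, yet all lay below the non-silencing arrays (change -1.19, SE 0.25, limma adjusted p = 0.0113), which left 43.7%. The change with GAPDH siRNA was -1.04 (SE 0.25, limma adjusted p = 0.0402). Without non-silencing replicate 2 neither was called (DcpS limma adjusted p = 0.0660). HCG11 entered by its own name, and members were chosen with earlier results of these data known. Its calls are therefore not independent of that choice.

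LINC01123 and ZNF503-AS2 fell with DcpS siRNA under all 24 alternatives. LINC01123 was at 7.0, 6.86 and 6.62 with DcpS siRNA against 7.50, 7.46 and 7.54 with non-silencing siRNA (change -0.67, SE 0.11, limma adjusted p = 0.00351). ZNF503-AS2 was at 5.67, 6.02 and 5.81 with DcpS siRNA against 6.48, 6.51 and 6.69 with non-silencing siRNA (change -0.73, SE 0.11, limma adjusted p = 0.00150). The DcpS arrays of ZNF503-AS2 were below all 12 other arrays, whose lowest value was 6.32. LINC01123 in DcpS arrays also lay below all others, the nearest being GAPDH replicate 3 at 7.01.

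LINC02381 and LINC00265 fell with DcpS siRNA as they did with LOC550643 siRNA. LINC02381 was at 7.51, 6.95 and 7.41 with DcpS siRNA against 8.07, 7.89 and 7.88 with non-silencing siRNA (change -0.66, limma adjusted p = 0.0200), and LINC00265 at 7.92, 7.67 and 7.91 against 8.17, 8.59 and 8.23 (change -0.50, limma adjusted p = 0.0285). With GAPDH siRNA the arrays of both overlapped those of non-silencing siRNA, with changes of 0.07 and -0.20. In DcpS arrays the other probe sets of LINC00265 changed by -0.05 and -0.38, and the mean of the 3 was not called (-0.31, limma adjusted p = 0.151).

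LINC01061 and LINC00999, among the brightest of the 171, also fell. LINC01061 was at 9.0, 9.05 and 9.17 with DcpS siRNA against 9.41, 9.86 and 9.51 with non-silencing siRNA (change -0.52, limma adjusted p = 0.0173). Its 7 probe sets changed by -0.36 to -0.58 with DcpS siRNA, all downwards, but differed with other siRNAs. Those at means of 7.95 and 6.99 changed by -0.58 and -0.50 with LOC550643 siRNA and by -0.01 and -0.02 with Dcp2 siRNA. The other probe sets changed by -0.21 to -0.27 with LOC550643 and by -0.17 to -0.24 with Dcp2 siRNA. LINC00999 was at 9.66, 9.63 and 9.87 against 10.08, 10.40 and 10.17 in non-silencing arrays (change -0.50, limma adjusted p = 0.0134), and its 3 other probe sets changed by -0.36, -0.17 and -0.04. The mean of the 4 probe sets of LINC00999 was not called (-0.27, limma adjusted p = 0.132). Probe sets of 1 gene may share sequence, so they are not separate observations. The brightest probe sets of LINC00999 and LINC01061 also changed alike with LOC550643, Dcp2, DcpS and GAPDH siRNA. Changes were -0.29, -0.20, -0.50 and -0.23 for LINC00999, and -0.27, -0.21, -0.52 and -0.25 for LINC01061. Whether these probe sets read a shared sequence was not tested, so the falls of LINC00999 and LINC01061 may not be separate.

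Of the 4 other fallers, LINC01089 was at 5.64, 5.37 and 5.25 with DcpS siRNA against 5.74, 6.09 and 5.88 with non-silencing siRNA (change -0.48, limma adjusted p = 0.0277). HOXA-AS3, transcribed within the HOXA cluster, was at 4.85, 4.82 and 4.65 against 5.12, 5.31 and 5.31 in non-silencing arrays (change -0.47, limma adjusted p = 0.0133). FOXD2-AS1, divergent from the forkhead gene FOXD2, was at 7.15, 7.28 and 7.37 against 7.46, 7.83 and 7.76 (change -0.42, limma adjusted p = 0.0453). PAN3-AS1, antisense to the gene of the PAN3 deadenylase subunit, was at 4.85, 4.92 and 4.81 against 5.45, 5.18 and 5.12 (change -0.39, limma adjusted p = 0.0424).
The risers with DcpS siRNA were LINC01023 and DHRS4-AS1. LINC01023 was at 7.68, 7.89 and 7.78 with DcpS siRNA against 7.28, 7.21 and 7.35 with non-silencing siRNA, above all 12 other arrays (change 0.51, SE 0.10, limma adjusted p = 0.00756). Its second probe set changed by 0.12, and the mean of the pair was not called (0.31, limma adjusted p = 0.119). DHRS4-AS1, antisense to the retinal reductase gene DHRS4, was at 7.92, 7.92 and 8.03 against 7.69, 7.56 and 7.47 in non-silencing arrays (change 0.38, SE 0.08, limma adjusted p = 0.0134). Its second probe set changed by 0.16, and the mean of both was not called either (0.27, limma adjusted p = 0.0938).
Without non-silencing replicate 2, 3 of the 13 DcpS calls were made, and without DcpS replicate 2, 6 were. LINC01023, LINC01123 and ZNF503-AS2 stayed called without any 1 array, whereas FOXD2-AS1 and PAN3-AS1 were lost without any of 13 and 12 arrays (limma adjusted p 0.0531 to 0.183 and 0.0519 to 0.163).

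With GAPDH siRNA, HCG11, LINC00649 and FOXD2-AS1 fell and JMJD1C-AS1 rose. LINC00649 was at 5.06, 5.38 and 5.15 with GAPDH siRNA against 6.07, 5.84 and 5.71 with non-silencing siRNA (change -0.68, SE 0.17, limma adjusted p = 0.0485). FOXD2-AS1 was at 7.22, 7.15 and 7.22 against 7.46, 7.83 and 7.76 in non-silencing arrays (change -0.49, SE 0.11, limma adjusted p = 0.0307). JMJD1C-AS1, antisense to a gene of the jumonji histone demethylase family, was at 5.97, 5.97 and 6.10 against 5.62, 5.78 and 5.60 (change 0.35, SE 0.08, limma adjusted p = 0.0415). None of these pairs of groups overlapped. All 4 calls were lost without any 1 of the 3 GAPDH arrays or, save JMJD1C-AS1, without non-silencing replicate 2 (limma adjusted p 0.0510 to 0.181 over all lost calls of HCG11, 0.0542 to 0.178 of LINC00649, 0.0773 to 0.148 of FOXD2-AS1 and 0.0519 to 0.149 of JMJD1C-AS1).

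**Figure D4:**
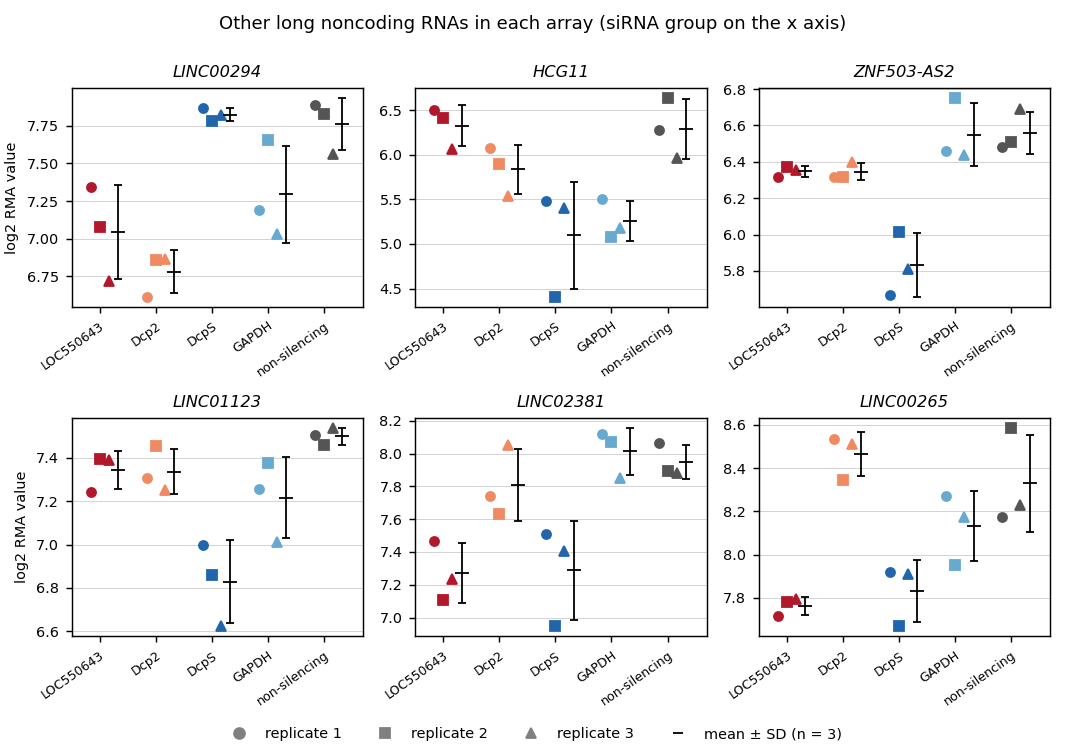
Log2 RMA value of LINC00294, HCG11, ZNF503-AS2, LINC01123, LINC02381 and LINC00265 in each of the 15 arrays, by siRNA group (x axis, non-silencing last). Shapes are replicate numbers and bars the group mean and SD (n = 3). ZNF503-AS2 and LINC01123 are lowest in the 3 DcpS arrays, LINC00294 is lowest on average with Dcp2 siRNA (6.78 ± 0.14), and LINC00265 and LINC02381 are low with both LOC550643 and DcpS siRNA.

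In the 4 comparisons with non-silencing, and among the 73 antisense RNAs whose named gene was measured, ZNF503-AS2 with DcpS siRNA was the only one called together with that gene. Pairs were not examined in the direct comparisons. ZNF503, a zinc finger transcriptional repressor gene, was at 6.69, 6.80 and 6.96 with DcpS siRNA against 7.14, 7.70 and 7.60 with non-silencing siRNA (change -0.66, limma adjusted p = 0.00791). Its DcpS arrays lay below all 12 other arrays. The start region of ZNF503-AS2 is shown because ZNF503 starts close downstream of it on the opposite strand. The window is chr10:75401278-75401577, plus strand, of RefSeq's GRCh38.p14 table, which ends shortly after the most upstream annotated start, with CG dinucleotides in capitals.
ZNF503-AS2: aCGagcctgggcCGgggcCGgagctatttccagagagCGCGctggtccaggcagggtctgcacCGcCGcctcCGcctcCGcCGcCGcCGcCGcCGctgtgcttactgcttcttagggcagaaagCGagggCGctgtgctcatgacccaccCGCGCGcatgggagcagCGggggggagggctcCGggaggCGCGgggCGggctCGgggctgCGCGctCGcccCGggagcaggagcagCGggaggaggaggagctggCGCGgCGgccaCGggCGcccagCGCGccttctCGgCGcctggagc
The window held 39 CG dinucleotides and 76.7% G and C. Of all genes in the promoter table, each by its most upstream window of that length, 8.49% held at least as many CG. The annotated ZNF503 starts lay 236 and 388 bases downstream of the ZNF503-AS2 start, on the minus strand, so the annotated spans overlap. Whether the array's probes kept the strands apart is not given in the sources used here, and a shared reading of 1 transcript by both probe sets was not tested.

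The other called antisense RNAs of these 73 had partners that were not called: DHRS4 changed by 0.22, FOXD2 by -0.01 and PAN3 by 0.16 with DcpS siRNA, and JMJD1C by 0.26 and FOXD2 by 0.03 with GAPDH siRNA. The reverse was seen for THAP9, which rose by 0.64 with Dcp2 (limma adjusted p = 0.0283) and by 0.55 with DcpS siRNA (0.0336), while THAP9-AS1 was at 0.33 and 0.30, not called. NHSL1 rose by 0.34 with Dcp2 siRNA (limma adjusted p = 0.0479) and NHSL1-AS1 was at -0.19. Across the 73 pairs Pearson's r between the changes was 0.39 for LOC550643, 0.23 for Dcp2, 0.37 for DcpS and 0.12 for GAPDH siRNA. These are descriptions over genes measured on the same arrays. Changes had the same sign in 51, 42, 41 and 36 of the 73 pairs.

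**Figure D5:**
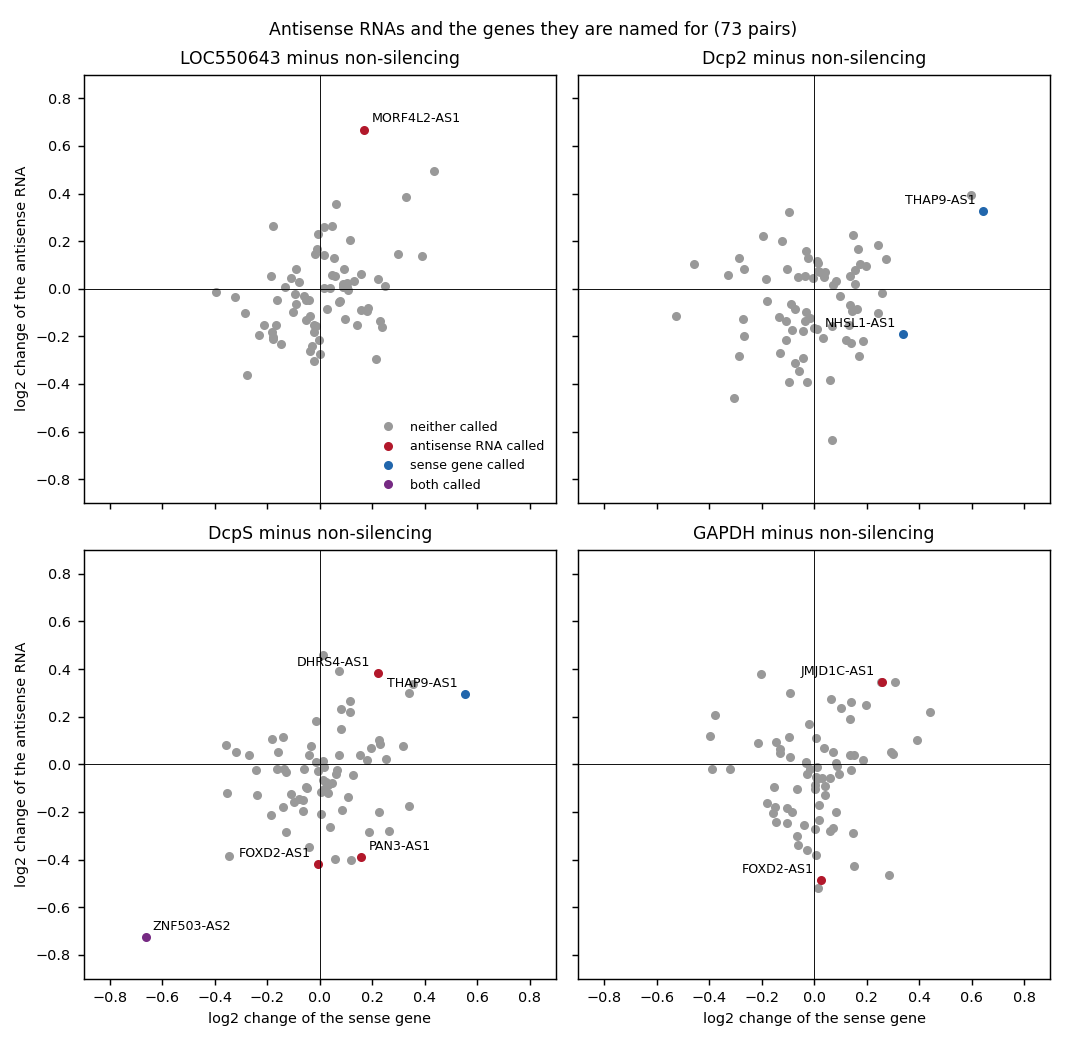
Log2 change of 73 antisense RNAs (y axis) against that of the gene each is named for (x axis), for LOC550643, Dcp2, DcpS and GAPDH siRNA, each minus non-silencing. Grey points are pairs with neither called, red those with the antisense RNA called, blue those with the sense gene called and purple both. ZNF503-AS2 at lower left with DcpS siRNA (-0.73, with ZNF503 at -0.66) is the single purple point.

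The siRNA groups were also compared directly. Between LOC550643 and DcpS siRNA 11 of the 171 were called (6.43%, against 6.4% of all named genes), 8 higher (3.49% of all genes) and 3 lower (2.91%) with LOC550643 siRNA. Among genes at 5 or more the share was 10.3%. HCG11 was higher by 1.23 (limma adjusted p = 0.00618), ZNF503-AS2 by 0.52 (0.00763), LINC01123 by 0.52 (0.0115) and HOXA-AS3 by 0.41 (0.0220), all RNAs that fell with DcpS siRNA against non-silencing. NFYC-AS1, GABPB1-AS1, TMPO-AS1 and SVIL-AS1, antisense to genes of transcription factor subunits, a nuclear lamina protein and supervillin, were higher by 0.55, 0.47, 0.39 and 0.31. SNHG16 (-1.10), LINC00294 (-0.77) and LINC01023 (-0.52) were lower, and with the mean of both its probe sets LINC01023 was not called (-0.19, limma adjusted p = 0.351). Its second probe set was not lower: against non-silencing it changed by 0.25 with LOC550643 and 0.12 with DcpS siRNA.

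Between LOC550643 and GAPDH siRNA 12 were called (7.02%, against 4.08% of all named genes and 6.66% of those at 5 or more), 7 higher (2.48% of all genes) and 5 lower (1.61%) with LOC550643 siRNA. HCG11 was higher by 1.07 (limma adjusted p = 0.0207) and LINC00649 by 0.90 (0.00585). LINC00649 stood at 6.41, 6.14 and 5.73 with LOC550643 siRNA against 5.06, 5.38 and 5.15 with GAPDH siRNA. NFYC-AS1 (0.66), LINC00665 (0.54), GABPB1-AS1 (0.46), TMPO-AS1 (0.45) and FOXD2-AS1 (0.44) were also higher. GABPB1-AS1 was at 5.67, 5.67 and 5.73 with LOC550643 siRNA, above the 12 other arrays, of which GAPDH replicate 2 and non-silencing replicate 2 were highest at 5.43. SNHG16 (-0.89), LINC02381 (-0.74), PCNA-AS1 (-0.41), C10orf95-AS1 (-0.36) and JMJD1C-AS1 (-0.30) were lower. With the mean of both its probe sets LINC00665 was not called (0.41, limma adjusted p = 0.0579).

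Between LOC550643 and Dcp2 siRNA, the targets linked to P-bodies, 3 were called (1.75%, against 3.2% of all named genes, 1.65% higher and 1.56% lower, and 5.2% of those at 5 or more). SNHG16 (-0.70, limma adjusted p = 0.00274) and LINC00265 (-0.70, 0.00444) were lower with LOC550643 siRNA, and FGD5-AS1 was higher by 0.46 (0.0265). The mean of the 3 probe sets of LINC00265 was not called (-0.34, limma adjusted p = 0.115). LINC00265 stood at 7.72, 7.78 and 7.79 with LOC550643 siRNA against 8.53, 8.35 and 8.51 with Dcp2 siRNA.

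Between Dcp2 and DcpS siRNA 13 were called (7.6%, against 5.64% of all named genes and 9.16% of those at 5 or more), 6 higher (2.44% of all genes) and 7 lower (3.2%) with Dcp2 siRNA. LINC00294 was lower by 1.04 on the log2 scale (-1.04, limma adjusted p = 0.00146). LINC00467 was at 6.26, 6.22 and 6.29 with Dcp2 siRNA against 7.22, 6.93 and 6.85 with DcpS siRNA (change -0.74, limma adjusted p = 0.00815). DICER1-AS1 (-0.62), FGD5-AS1 (-0.49), LINC01023 (-0.46), URB1-AS1 (-0.39) and DHRS4-AS1 (-0.36) were lower too. LINC03027 was at 7.01, 7.14 and 7.18 with Dcp2 siRNA against 6.09, 6.58 and 6.29 with DcpS siRNA (change 0.79, limma adjusted p = 0.00541). LINC00632, the primary transcript of the circular RNA CDR1as, was at 7.26, 7.30 and 6.98 against 6.06, 6.47 and 6.83 in DcpS arrays (change 0.73, limma adjusted p = 0.0378). LINC00265 (0.63), ZNF503-AS2 (0.51), LINC01123 (0.51) and SVIL-AS1 (0.39) were higher. With the mean of each gene's probe sets LINC00265 (0.31, limma adjusted p = 0.123), LINC01023 (-0.21, 0.278) and DHRS4-AS1 (-0.24, 0.119) were not called, and LINC03027 was at 0.44 (0.0115). Against non-silencing, the second probe set of LINC01023 changed by 0.15 with Dcp2 and 0.12 with DcpS siRNA. That of LINC03027, at a mean of 4.98, changed by 0.26 and 0.16, where the brightest changed by 0.52 and -0.27.

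Between Dcp2 and GAPDH siRNA STX18-AS1 alone was called (0.585%, against 2.79% of all named genes, 1.74% higher and 1.05% lower, and 4.6% of those at 5 or more), at 5.39, 5.38 and 5.60 with Dcp2 siRNA against 4.87, 5.16 and 5.13 with GAPDH siRNA (change 0.40, limma adjusted p = 0.0453). This call was kept in 4 of 24 alternatives. The second probe set, at a mean of 2.51, changed by 0.03 with Dcp2 and 0.14 with GAPDH siRNA against non-silencing, and with the mean of both the call was lost (0.14, limma adjusted p = 0.533). At an unadjusted p under 0.05 there were 22 of the 171 (12.9%, against 22.2% of genes at 5 or more). Between DcpS and GAPDH siRNA 9 were called (5.26%, against 5.98% of all named genes and 9.77% of those at 5 or more), 4 higher (3.51% of all genes) and 5 lower (2.47%) with DcpS siRNA. LINC00467 (0.72), DICER1-AS1 (0.54), LINC01023 (0.45) and DHRS4-AS1 (0.33) were higher, and LINC03027 (-0.75), ZNF503-AS2 (-0.72), LINC02381 (-0.72), HOXA-AS3 (-0.36) and SVIL-AS1 (-0.32) lower. With the mean of each gene's probe sets LINC01023 (0.18, limma adjusted p = 0.387) and DHRS4-AS1 (0.28, 0.0672) were not called, and LINC03027 was at -0.43 (0.0117). Against non-silencing, the second probe set of LINC01023 changed by 0.12 with DcpS and 0.20 with GAPDH siRNA. That of LINC03027 changed by 0.16 and 0.28, where the brightest changed by -0.27 and 0.48. ZNF503-AS2 had the smallest limma adjusted p of the 9 calls, 0.000660. SVIL-AS1 stood at 5.78, 6.01 and 5.89 with DcpS siRNA, below all other arrays, whose lowest value was 6.08.

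Over all 5 groups, limma's moderated F test called 26 of the 171 (15.2%, against 12.2% of all named genes and 20.1% of those at 5 or more). SNHG16 led with an adjusted p of 0.000155, followed by ZNF503-AS2 (0.00150) and LINC00294 (0.00156). Of the 9 snoRNA hosts 1 was called, and 3 had an unadjusted p under 0.05, as did 41.5% of genes at 5 or more. Over the 10 comparisons 32 RNAs were called at least once, 13 of them in direct comparisons only, and 139 in none. The RNAs' within-group SD had a median of 0.165, against 0.141 for all genes at 5 or more.

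Genes of the machinery were set beside the RNAs. Of 19 nonsense-mediated decay factors listed, 9 were measured, and UPF2, a core factor, rose with LOC550643 siRNA (0.64, limma adjusted p = 0.0242) while none was called with Dcp2, DcpS or GAPDH siRNA. Of 22 decapping and 5' to 3' decay genes 12 were measured. With Dcp2 siRNA DCP2 fell by 1.80 and the exonuclease gene XRN1 by 0.43 on the log2 scale, and with DcpS siRNA DDX6 (-0.56) and DCP2 (-0.54) fell and DCP1B rose (0.44), while none was called with LOC550643 or GAPDH siRNA. Of 22 exosome genes 16 were measured. EXOSC6 fell with LOC550643 (-0.66) and DcpS siRNA (-0.54), EXOSC7 rose with DcpS siRNA (0.32), and the poly(A) polymerase gene TENT4B fell with GAPDH siRNA (-0.59). Of 21 snoRNP genes 15 were measured, and NOLC1, a chaperone of snoRNPs, rose with all 4 siRNAs, by 0.90 for LOC550643, 0.99 for Dcp2, 1.02 for DcpS and 0.36 for GAPDH siRNA (limma adjusted p 8.44e-06 to 0.0307). NOP10 of the box H/ACA snoRNP rose with GAPDH siRNA (0.39). These 4 comparisons share the non-silencing arrays.

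Among 18 measured long noncoding RNAs that the symbols leave out, NORAD, which binds Pumilio proteins, fell with DcpS siRNA (-0.93, SE 0.15, limma adjusted p = 0.00243). Its changes with LOC550643, Dcp2 and GAPDH siRNA were 0.11, -0.40 and -0.42, not called. None of the other 17 was called with any siRNA, and the median of the 18 was 0.06 for LOC550643, 0.03 for Dcp2, -0.11 for DcpS and -0.03 for GAPDH siRNA.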

How the data were processed

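Total RNA of 15 HEK293T samples was hybridised to Affymetrix whole-transcript arrays. The deposited values are log2 probe set summaries made by the authors with RMA in oligo, per the submitters' processing notes, which name no version; the log2 base was inferred from the range of the values, and the probe set definition and build are not given in the sources used here. RMA makes arrays share 1 distribution of probe intensities before summarizing, so values are relative. The medians of the deposited summaries ran from 4.01 to 4.08 over the arrays. Of the probe sets, 16098 were named through the platform annotation and 37519 were unnamed. Each gene was represented by its probe set of highest mean. limma 3.58.1 in R 4.3.3 was fitted with 1 mean per group over all 15 arrays (residual df 10), with Benjamini-Hochberg adjustment over 14884 genes per comparison, and tested on simulated data. The RNAs named are all called ones, all SNHG hosts, GAS5, HCG11, the 3 highest and those beside the level threshold. Members and gene lists were chosen with earlier results of these data known. Alternatives were a filter on dim genes, other probe set rules, centring on array medians, quantile normalization, a replicate block, an axis covariate, another prior, only the 6 compared arrays, and leaving out each array. The number of arrays limits the precision.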

Additional observations from a re-analysis of the deposited data

How the results depend on the processing

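None of the 1752 values of the 73 calls reversed under an alternative: 1371 kept their call and 381 lost it. The calls that held under all 24 alternatives numbered 16, of which 3 were against non-silencing (SNHG16 with LOC550643, LINC01123 and ZNF503-AS2 with DcpS siRNA). Counts of called RNAs moved by over 1.5 times as follows. With all probe sets tested, LOC550643 against non-silencing gave 1 in place of 5, Dcp2 1 in place of 2, DcpS 6 in place of 13 and GAPDH 0 in place of 4, LOC550643 against DcpS 6 in place of 11 and against GAPDH 4 in place of 12, Dcp2 against GAPDH 0 in place of 1, and the F test 11 in place of 26. With only the 6 compared arrays these were 1, 1, 2 and 0 against non-silencing, 6 for LOC550643 against Dcp2, 7 against DcpS and 7 against GAPDH, 7 for Dcp2 against DcpS, 0 for Dcp2 against GAPDH and 2 in place of 9 for DcpS against GAPDH. The filter on dim genes gave 4 for Dcp2 and 7 for GAPDH against non-silencing, 10 in place of 3 for LOC550643 against Dcp2, 18 for LOC550643 against DcpS, 3 for Dcp2 against GAPDH and 14 for DcpS against GAPDH. The axis covariate gave 1 for Dcp2 and 20 for DcpS against non-silencing, 8 for LOC550643 against Dcp2, 20 against DcpS, 2 for Dcp2 against GAPDH and 17 for DcpS against GAPDH. Median centring gave 2 for GAPDH against non-silencing and 0 for Dcp2 against GAPDH, the mean of probe sets 0 for Dcp2 against GAPDH, and the trend prior 6 for LOC550643 against Dcp2. The cause was not tested. Testing all probe sets adjusts over more tests and 6 arrays leave fewer samples, but the part of either in the lost calls was not tested.

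Deviations of same-numbered arrays from their group means correlated at -0.198 to 0.394 (median 0.0182). For differently numbered arrays it was -0.314 to 0.288 (median 0.000924). On the shared axis replicate 1 deviated by -6.54, 3.15, -14.0, -0.78 and -14.6 for LOC550643, Dcp2, DcpS, GAPDH and non-silencing siRNA. Replicate 3 deviated by 10.5, -3.52, 7.34, 12.1 and 9.73 in that order. Whether the numbers mark a shared batch cannot be told from these values. The replicate block gave 5, 3, 14 and 3 calls for LOC550643, Dcp2, DcpS and GAPDH against non-silencing and 6 for LOC550643 against Dcp2.

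Leaving out 1 array gave 1 to 5 calls for LOC550643 against non-silencing: 1 without LOC550643 replicate 2, without LOC550643 replicate 3 and without non-silencing replicate 2, then 2 when non-silencing replicate 1 was dropped, and 3 when LOC550643 replicate 1, Dcp2 replicate 2, Dcp2 replicate 3, DcpS replicate 2 or GAPDH replicate 1 was. For Dcp2 it gave 0 to 3, with 0 without non-silencing replicate 1 and 1 without Dcp2 replicate 1, 2 or 3, GAPDH replicate 1 or non-silencing replicate 2. For DcpS it gave 3 to 13, with 3 without non-silencing replicate 2 and 6 without DcpS replicate 2. For GAPDH it gave 0 to 5, with 0 without GAPDH replicate 3, 1 without non-silencing replicate 1 or 2, GAPDH replicate 1 or 2 or Dcp2 replicate 1 or 2, and 2 without LOC550643 replicate 1 or 2, Dcp2 replicate 3, DcpS replicate 2 or 3 or non-silencing replicate 3. LOC550643 against Dcp2 gave 2 to 6 (5 without LOC550643 replicate 3 or DcpS replicate 2, 6 without GAPDH replicate 2), against DcpS 6 to 14 (6 without LOC550643 replicate 1 or 2) and against GAPDH 4 to 12 (4 without GAPDH replicate 3, 5 without LOC550643 replicate 1, 6 without LOC550643 replicate 2 or 3, 7 without GAPDH replicate 1). Dcp2 against DcpS gave 8 to 16 (8 without DcpS replicate 1), DcpS against GAPDH 4 to 10 (4 without GAPDH replicate 1) and the F test 16 to 25 (16 without Dcp2 replicate 1). Dcp2 against GAPDH gave 0 to 2, with 2 when non-silencing replicate 1 was dropped and 0 without any LOC550643 or GAPDH array, Dcp2 replicate 1 or 3, DcpS replicate 2 or 3 or non-silencing replicate 2. Of 184 alternative class medians 1 moved, that of the other RNAs with DcpS siRNA, to -0.10 without DcpS replicate 1.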

Other observations

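By kind of RNA, the calls against non-silencing were as follows. With LOC550643 siRNA 3 of 53 LINC RNAs (5.66%) and 1 of 108 antisense RNAs (0.926%) were called, beside 2.67% of all genes at 5 or more. With Dcp2 siRNA 1 LINC RNA (1.89%) and 1 antisense RNA (0.926%) were called, beside 3.3%. With DcpS siRNA it was 7 (13.2%) and 5 (4.63%), beside 6.02%, and with GAPDH siRNA 1 (1.89%) and 2 (1.85%), beside 3.37%. The difference between kinds was not tested. HCG11 had the second largest within-group SD of the 171 RNAs after SNHG15, and its axis correlation within groups was -0.28.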
